A study of Rattus norvegicus with 16 samples.

Results

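The integrated stress response regulators described here are 10 genes, 2 kinases of the translation initiation factor eIF2α (Eif2ak3 and Eif2ak4), 4 transcription factors of the ATF4 arm (Atf4, Atf3, Atf5 and Ddit3) and 4 feedback and effector genes (Trib3, Ppp1r15a, Chac1 and Sesn2). They were chosen by gene symbol as members of a named pathway, and all 10 were found among the 32623 genes of the count table. The study asked how rat kidney epithelial cells and fibroblasts that share their medium respond to extracellular acidosis. RNA was sequenced in 16 libraries, with 4 per group. Library totals lay between 16201084 (N12) and 34784862 (N16) counted fragments, and a member's count lay between 12 (Atf3 in N10) and 19919.

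The epithelial cells were of the line NRK-52E and the fibroblasts of the line NRK-49F, both of normal rat kidney. NRK-52E cells grew on permeable filter inserts set into wells in which NRK-49F cells grew, so that cell line and growth surface cannot be told apart. Both lines were kept for 24 h in medium without fetal calf serum and then for 48 h at pH 7.4 or pH 6.0, which the sample titles write as 7 and 6. The groups were NRK-52E at pH 7.4 (libraries N1, N2, N5 and N6), NRK-52E at pH 6.0 (N3, N4, N7 and N8), NRK-49F at pH 7.4 (N9, N10, N13 and N14) and NRK-49F at pH 6.0 (N11, N12, N15 and N16). Each library has a further number in its column header, whose meaning is not stated, 21 for N1 to N4, 22 for N5 to N8, 20 for N9 to N12 and 21 for N13 to N16. Nothing in the sources used here says that the 4 libraries of a group came from separate cultures, so p-values measure only the spread between these libraries.

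The integrated stress response is the pathway by which cells lower general protein synthesis under stress. Kinases such as PERK (Eif2ak3), which senses misfolded protein in the endoplasmic reticulum, and GCN2 (Eif2ak4), which senses uncharged transfer RNA, phosphorylate eIF2α, and translation of a few messages, Atf4 among them, then increases. ATF4 and its partners induce genes of amino acid supply and redox balance, further transcription factors such as CHOP (Ddit3), and proteins that end the response. Phosphorylation and translation were not measured here, and the values below are messenger RNA levels. In RNA from whole cultures, fewer cells of a type and less RNA per cell cannot be told apart.

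The labels were compared with marker genes. Of 8 epithelial markers, 4 (Epcam, Krt18, Cdh16 and Esrp1) had a mean under 1 FPM (counted fragments scaled to a common library size with TMM factors) in NRK-52E at pH 7.4, and at pH 6.0 there were 6, with Cdh1 and Krt19 added. The most abundant, Krt8, was at 430.4 ± 32.0 FPM (SD, n = 4) in NRK-52E and at 848 ± 70.4 in NRK-49F at pH 7.4, and at 316 ± 27.4 and 206 ± 9.43 at pH 6.0. Of 10 fibroblast markers, Thy1, Dcn and Fap were under 1 FPM in both lines, and Col3a1 was at 6221 ± 95.0 FPM in NRK-52E and 458 ± 103 in NRK-49F at pH 7.4, while Col1a1 was at 23.6 ± 3.84 and 6205 ± 410. Other markers separated the lines at pH 7.4 in the direction of their labels, with Ocln at 41.2 ± 2.04 FPM in NRK-52E and 0 in NRK-49F, Pdgfra at 0.287 ± 0.11 and 392 ± 54.7, Twist1 at means of 1.41 and 94.7 and Lum at 0.034 ± 0.0451 and 8.27 ± 1.56. Of 8 tested fibroblast markers, 6 were called lower in NRK-52E and 1 higher, Col3a1, and of 4 tested epithelial markers 2 were called higher and 1 lower, Krt8. Of genes known from the proximal tubule, Ggt1 was at 1.53 ± 0.241 FPM in NRK-52E and 112 ± 19.8 in NRK-49F at pH 7.4 and Cubn at 0.804 ± 0.114 and 2.54 ± 0.654, both called lower in NRK-52E, while Aqp1, at 34.4 ± 7.64 and 21.8 ± 3.88, was called higher. At pH 6.0 Ggt1 was at 1.41 ± 0.764 FPM in NRK-52E and 413 ± 84.8 in NRK-49F, Cubn at 1.001 ± 0.422 and 1.395 ± 0.713, and Aqp1 at 26.4 ± 3.95 and 41.6 ± 20.4. Of the pH changes of these genes, the rise of Ggt1 in NRK-49F was called (log2 fold change 1.87, SE 0.157) and the others were not. At pH 7.4 the markers thus followed the labels in part, with Col3a1, Krt8, Ggt1 and Cubn going against them, and the groups are called by their cell line. The summed level of the epithelial markers was 432 to 508 FPM in the libraries of NRK-52E at pH 7.4 and 301 to 364 at pH 6.0, and that of the fibroblast markers 6200 to 6440 and 1850 to 3210. All 4 tested epithelial markers were called lower at pH 6.0 in NRK-52E, Cdh1 (log2 fold change -2.31), Ocln (-2.11, to 9.67 ± 1.05 FPM), Krt19 (-1.63) and Krt8 (-0.47), with a median of -1.87. Of 6 tested fibroblast markers there, 4 were called lower and 0 higher, with a median of -1.4, where 56.7% of all tested genes were called in either direction. In NRK-49F the sums were 785 to 949 and 199 to 221 FPM for the epithelial markers and 6730 to 7750 and 7830 to 9510 for the fibroblast markers. The most abundant fibroblast marker there, Col1a1, went from 6205 ± 410 to 8288 ± 922 FPM and was not called. Of 7 tested fibroblast markers in NRK-49F, 0 were called higher and 3 lower, Col3a1 (log2 fold change -3.1), Lum (-2.06) and Pdgfrb (-2.01), with a median of -0.387. Of 2 tested epithelial markers 1 was called lower, Krt8 (-2.06), where 37.8% of all tested genes were called. The part of these markers in the results on the 10 regulators was not tested.

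At pH 6.0, 9 of the 10 regulators rose in NRK-52E, all but Eif2ak4, against 28.2% of the 13735 tested genes that were called higher and 56.7% called in either direction. In NRK-49F, 2 of 10 rose, Atf3 and Trib3, against 18.4% of 13339 tested genes called higher and 37.8% called in either direction. A gene was called when its false discovery rate (FDR) was below 0.01 in both edgeR and DESeq2. All 10 passed edgeR's filter on low counts in both lines. Over the 10 regulators the median log2 fold change was 2.5 (NRK-52E) and 0.22 (NRK-49F), beside 0.00136 and -0.0029 over all tested genes. Scaling by library totals alone moved these medians of all tested genes to -0.207 and 0.0403. Tested as an interaction in the 16 libraries, the pH effect was more positive in NRK-52E for 9 of the 10 regulators at an FDR below 0.01 in edgeR, again all but Eif2ak4, against 19.4% of 14679 tested genes and 37% in either direction. The median of these differences was 1.96 for the regulators and -0.0135 for all tested genes.

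**Figure D1:**
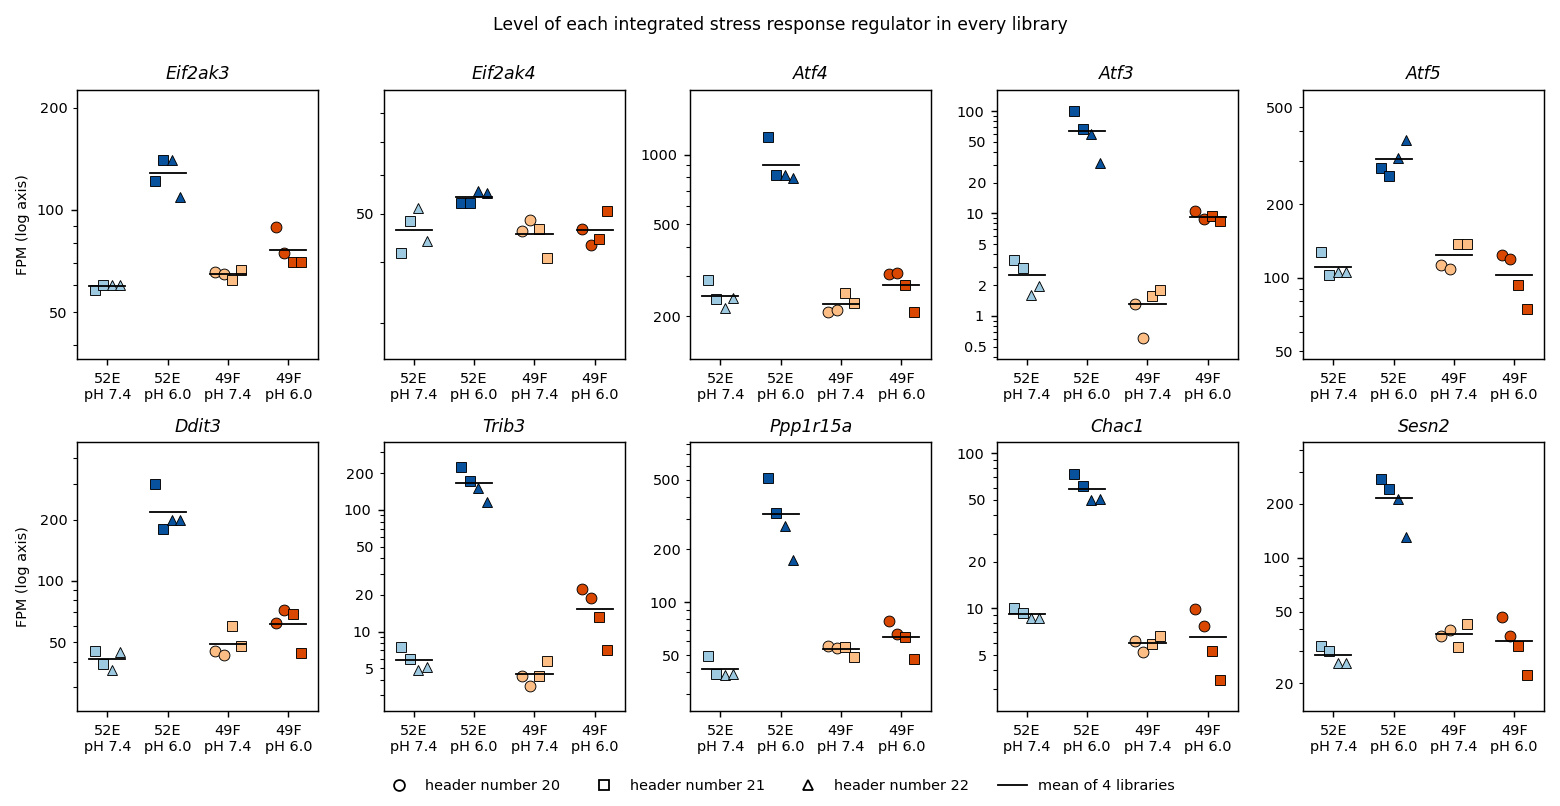
FPM of each regulator (log axis) in the 16 libraries by cell line and pH, with 1 point per library, its shape showing the number in the column header, and a black line at the mean of the 4 libraries. For all 10 genes the NRK-52E libraries at pH 6.0 lie above every library of the other groups under this normalisation, by the smallest margin for Eif2ak4, whose change was not called. The share of all genes with this pattern was not computed.

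Eif2ak3 (ENSRNOG00000006069, chromosome 4 of rn6) encodes PERK, the eIF2α kinase of the endoplasmic reticulum membrane. Its level in NRK-52E was 58.3, 60.3, 60.1 and 60.0 FPM in N1, N2, N5 and N6 at pH 7.4 and 122, 140.4, 141 and 109.5 FPM in N3, N4, N7 and N8 at pH 6.0. The libraries at pH 7.4 lay close together, and each library at pH 6.0 was well above them. The log2 fold change was 1.08 (SE 0.091, adjusted p = 2.38e-06 in edgeR's quasi-likelihood test with Benjamini-Hochberg adjustment), higher in 4 of 4 libraries. In NRK-49F its level was 65.7, 64.9, 62.1 and 66.5 FPM in N9, N10, N13 and N14 and 89.1, 74.9, 70.2 and 70.4 FPM in N11, N12, N15 and N16. Here too the groups did not overlap, with N11 the highest, but the log2 fold change of 0.22 (SE 0.099, adjusted p = 0.0811 in edgeR) was not called.

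Eif2ak4 (ENSRNOG00000006027, chromosome 3) encodes GCN2, the eIF2α kinase that responds to amino acid shortage. In NRK-52E it was at 41.6, 48.3, 51.3 and 44.1 FPM in N1, N2, N5 and N6 and at 52.5, 52.5, 55.7 and 55.1 FPM in N3, N4, N7 and N8. The groups did not overlap, but N5 at pH 7.4 was close to N3 and N4 at pH 6.0, and the change was not called. Its log2 fold change was 0.20 (SE 0.098, adjusted p = 0.0898 in edgeR) and it was -0.01 when libraries were scaled by their totals alone. In NRK-49F the level was 46.1, 48.6, 46.6 and 40.6 FPM at pH 7.4 and 46.6, 43.3, 44.5 and 50.6 FPM at pH 6.0, with overlapping groups and a log2 fold change of 0.01 (SE 0.098, adjusted p = 0.939 in edgeR). It was the regulator with the smallest change in both lines.

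Atf4 (ENSRNOG00000017801, chromosome 7) encodes the transcription factor at the centre of the pathway. NRK-52E libraries held 288, 237, 217 and 239.9 FPM in N1, N2, N5 and N6 and 1189, 816, 816 and 792 FPM in N3, N4, N7 and N8. Every library at pH 6.0 was far above those at pH 7.4, and N3 stood above the other libraries of its group. This was a log2 fold change of 1.86 (SE 0.15, adjusted p = 1.82e-06 in edgeR), which is 3.64-fold. In NRK-49F it was at 209.7, 213, 253 and 229 FPM in N9, N10, N13 and N14 and at 306, 307, 274 and 209 FPM in N11, N12, N15 and N16. The libraries N11, N12 and N15 were above all those at pH 7.4 and N16 was below them, so that the groups overlapped and the log2 fold change of 0.26 (SE 0.13, adjusted p = 0.105 in edgeR) was not called. Without N16, it was 0.38 and was called, with an adjusted p of 0.00918 in edgeR.

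Atf3 (ENSRNOG00000003745, chromosome 13) encodes a stress-induced transcription factor that is a target of ATF4. Levels in NRK-52E were 3.51, 2.95, 1.62 and 1.95 FPM in N1, N2, N5 and N6 and 100.0, 67.0, 59.9 and 31.1 FPM in N3, N4, N7 and N8. In NRK-49F it was 1.31, 0.606, 1.58 and 1.78 FPM in N9, N10, N13 and N14 and 10.493, 8.75, 9.36 and 8.48 FPM in N11, N12, N15 and N16. The pH groups were apart in both lines, the spread at pH 6.0 was wide in NRK-52E and narrow in NRK-49F, and the lowest NRK-52E library at pH 6.0, N8, was above the highest of NRK-49F, N11. On the log2 scale the change was 4.66 (SE 0.37, adjusted p = 1.61e-06) in NRK-52E and 2.79 (SE 0.27, adjusted p = 5.37e-06) in NRK-49F by edgeR's test. The difference between these effects was 1.87 (SE 0.48, adjusted p = 0.0033 in edgeR). It did not pass the threshold without N3, where it was 1.46 with an adjusted p of 0.0106 in edgeR, or without N14, where it was 1.65 with an adjusted p of 0.0167 in edgeR.

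Atf5 (ENSRNOG00000020060, chromosome 1) encodes a related factor whose message, like that of Atf4, is translated when eIF2α is phosphorylated. Measured in NRK-52E, it was at 127, 103, 106 and 106 FPM in N1, N2, N5 and N6 and 282, 262, 310.4 and 367 FPM in N3, N4, N7 and N8. Here N8 was the highest library at pH 6.0, whereas it was the lowest of its group for 6 of the 10 regulators. In NRK-49F the level was 112, 109, 137 and 137 FPM at pH 7.4 and 124, 119, 93.8 and 74.3 FPM in N11, N12, N15 and N16, so that N15 and N16 lay below all libraries at pH 7.4 and the groups overlapped. Its log2 fold change was 1.45 (SE 0.12, adjusted p = 2.44e-06 in edgeR) in NRK-52E and -0.28 (SE 0.16, adjusted p = 0.151 in edgeR) in NRK-49F, where it was not called. Of the 10 regulators, Atf5 and Sesn2 had a negative value in NRK-49F.

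Ddit3 (ENSRNOG00000006789, chromosome 7) encodes CHOP, a transcription factor linked to cell death in prolonged stress. Its NRK-52E levels were 45.0, 39.0, 36.5 and 44.7 FPM in N1, N2, N5 and N6 and 299, 179, 198 and 199.7 FPM in N3, N4, N7 and N8. All libraries at pH 6.0 were several times higher than those at pH 7.4, with N3 the highest. In NRK-49F the level was 44.9, 43.1, 59.7 and 47.8 FPM in N9, N10, N13 and N14 and 61.8, 71.7, 68.4 and 44.3 FPM in N11, N12, N15 and N16, and the groups overlapped through N16. Ddit3 had a log2 fold change of 2.39 (SE 0.17, adjusted p = 6.99e-07 in edgeR) in NRK-52E and 0.32 (SE 0.16, adjusted p = 0.106 in edgeR) in NRK-49F.

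Trib3 (ENSRNOG00000007319, chromosome 3) encodes a pseudokinase that binds ATF4 and limits its activity. In NRK-52E its level was 7.45, 5.90, 4.81 and 5.14 FPM in N1, N2, N5 and N6 and 224, 173, 151 and 115 FPM in N3, N4, N7 and N8. In NRK-49F it was 4.34, 3.54, 4.28 and 5.73 FPM in N9, N10, N13 and N14 and 22.3, 18.7, 13.3 and 7.10 FPM in N11, N12, N15 and N16. The pH groups did not overlap in either line, but N16 in NRK-49F was close to N14 at pH 7.4. Its log2 fold change was 4.81 (SE 0.23, adjusted p = 7.73e-08 in edgeR) in NRK-52E, which is 28.1-fold, and 0.4% of tested genes had a larger value. In NRK-49F it was 1.75 (SE 0.31, adjusted p = 0.000512 in edgeR), and the difference between the lines was 3.06 (SE 0.40, adjusted p = 7.43e-06 in edgeR). The call of Trib3 in NRK-49F was lost within header number 21 (0.995, adjusted p = 0.0513 in edgeR), while the value was 2.39 within number 20.

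Ppp1r15a (ENSRNOG00000020938, chromosome 1) encodes GADD34, the phosphatase subunit that removes the phosphate from eIF2α and so restores translation. In NRK-52E its level was 49.8, 39.0, 38.3 and 38.9 FPM in N1, N2, N5 and N6 and 509, 324, 271 and 173 FPM in N3, N4, N7 and N8. All libraries at pH 6.0 were above those at pH 7.4, and they ran down from N3 to N8, the widest relative spread of any regulator in that group (SD 44.2% of the mean). In NRK-49F the level was 56.4, 55.1, 55.5 and 49.1 FPM at pH 7.4 and 78.3, 65.9, 63.6 and 47.8 FPM in N11, N12, N15 and N16, and only N16 was not above the libraries at pH 7.4. The log2 fold change was 2.93 (SE 0.28, adjusted p = 5.39e-06 in edgeR) in NRK-52E and 0.23 (SE 0.14, adjusted p = 0.181 in edgeR) in NRK-49F.

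Chac1 (ENSRNOG00000014387, chromosome 3) encodes an enzyme that breaks down glutathione. Levels in NRK-52E were 10.1, 9.30, 8.66 and 8.71 FPM in N1, N2, N5 and N6 and 73.4, 61.5, 49.8 and 50.5 FPM in N3, N4, N7 and N8. In NRK-49F it was 6.17, 5.21, 5.86 and 6.60 FPM in N9, N10, N13 and N14 and 9.87, 7.69, 5.30 and 3.47 FPM in N11, N12, N15 and N16. The groups were far apart in NRK-52E, whereas in NRK-49F N11 and N12 lay above the libraries at pH 7.4, N16 below all of them and N15 among them. Chac1 had a log2 fold change of 2.66 (SE 0.15, adjusted p = 2.08e-07 in edgeR) in NRK-52E and 0.12 (SE 0.28, adjusted p = 0.74 in edgeR) in NRK-49F, where it became -0.15 without N11.

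Sesn2 (ENSRNOG00000042785, chromosome 5) encodes sestrin 2, which restrains mTORC1 signalling when leucine is low. In NRK-52E its level was 32.4, 30.4, 25.9 and 25.9 FPM in N1, N2, N5 and N6 and 276, 244, 212 and 132 FPM in N3, N4, N7 and N8. In NRK-49F it was 36.6, 39.6, 31.7 and 42.9 FPM at pH 7.4 and 46.8, 36.4, 32.0 and 22.2 FPM in N11, N12, N15 and N16. The groups were apart in NRK-52E and overlapped in NRK-49F, where N11 was the highest and N16 the lowest of the 8 libraries. The log2 fold change was 2.89 (SE 0.20, adjusted p = 6.69e-07 in edgeR) in NRK-52E and -0.15 (SE 0.19, adjusted p = 0.524 in edgeR) in NRK-49F, and the difference was 3.04 (SE 0.30, adjusted p = 2.68e-07 in edgeR).

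**Figure D2:**
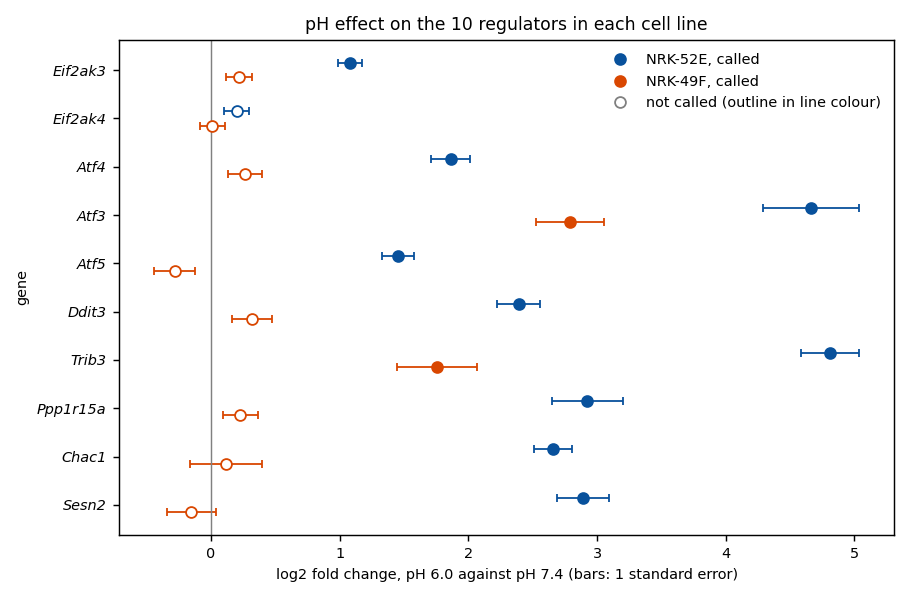
Log2 fold change at pH 6.0 against pH 7.4 (horizontal axis) of each regulator in NRK-52E (blue) and NRK-49F (orange), with bars of 1 standard error and filled points where the change was called by both tools. In NRK-52E 9 of 10 points are filled, from 1.08 for Eif2ak3 to 4.81 for Trib3, and in NRK-49F those of Atf3 (2.79) and Trib3 (1.75), while the value of Eif2ak4 in NRK-52E is -0.01 when libraries are scaled by their totals.

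By role, the feedback and effector genes had the larger median rise in NRK-52E, 2.91 over 4 genes, followed by the transcription factors with 2.13 over 4 genes and the kinases with 0.64 over 2. In NRK-49F these medians were 0.17, 0.29 and 0.11. By exact permutation of the libraries (two-sided, on log2 of FPM + 1), all 10 regulators reached p = 0.0286 in NRK-52E, which is the smallest p that 4 against 4 libraries allow. In NRK-49F, Atf3, Trib3 and Eif2ak3 reached it, and these 3 were the regulators whose pH groups did not overlap. How many of all tested genes reach this smallest p was not computed for either line. Whether these counts differ from those of other genes therefore cannot be told.

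The same libraries were high or low for many of the regulators. In NRK-52E at pH 6.0, N3 was the highest library for 7 of the 10 regulators and N8 the lowest for 6, and at pH 7.4 N1 was the highest for 8 and N5 the lowest for 7. In NRK-49F at pH 6.0, N11 was the highest for 7 and N16 the lowest for 8. The median SD of the 10 regulators, as a share of the mean, was 10.8% and 23% in NRK-52E at pH 7.4 and pH 6.0, and 11.2% and 19.8% in NRK-49F. The part of depth in these levels was not tested.

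Levels of many regulators differed between the numbers in the column header. In NRK-52E, the mean of the libraries of number 21 was above that of number 22 for 8 of 10 regulators at pH 7.4 and for 8 at pH 6.0, and for 5 both were above both at each pH. In NRK-49F at pH 6.0, for 9 of the 10 regulators, all but Eif2ak4, the mean of N11 and N12 (number 20) was above that of N15 and N16 (number 21), and for 7 both were above both. In NRK-49F at pH 7.4 this held for 4 of 10 means and the reverse for 6, and for Atf4, Atf3, Atf5 and Ddit3 both libraries of number 21 were above both of number 20. Within number 20 of NRK-49F, where 35% of 13379 tested genes were called in either direction, 4 regulators were called, Atf3 (log2 fold change 3.35), Trib3 (2.39), Ddit3 (0.60, adjusted p = 0.000667 in edgeR) and Atf4 (0.54, adjusted p = 0.000333 in edgeR). Within number 21, where 14.3% of 13861 tested genes were called, Atf3 alone of the regulators was called (2.38), Trib3 was at 0.995 (adjusted p = 0.0513 in edgeR), Ddit3 at 0.05, Atf4 at -0.02, Sesn2 at -0.48 and Atf5 at -0.73 (adjusted p = 0.0113 in edgeR). The difference between the numbers, tested after the values were seen as an interaction in the 8 NRK-49F libraries, was called for 0 of the 10 regulators, against 0.0075% of 13339 tested genes. It had an unadjusted p below 0.05 in edgeR for 4 of them, the lowest adjusted p was 0.241 (Atf5, at -0.88, SE 0.18), and the value was lower in number 21 for 9. In NRK-52E, 9 regulators were called within number 21, against 37.7% of 13903 tested genes, and 9 within number 22, against 20.2% of 13952. The difference between these numbers was called for 0 of 10, against 0% of 13735 tested genes, with an unadjusted p below 0.05 for 0 of them in edgeR, and the value was lower in number 22 for 9.

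Between the lines at pH 7.4, Chac1 was the regulator called, higher in NRK-52E, which is 1 of 10 against 33.3% of 14026 tested genes called higher in NRK-52E and 66.6% in either direction. Chac1 was at 9.20 ± 0.679 FPM in NRK-52E and 5.96 ± 0.588 in NRK-49F (SD, n = 4), with a log2 difference of 0.71 (SE 0.13, adjusted p = 0.000424 in edgeR). This call was lost within header number 21 (0.71, adjusted p = 0.0388 in edgeR) and with all 16 libraries in 1 model (0.62, adjusted p = 0.0231 in edgeR). Atf3 had a larger log2 difference, 0.9965 (SE 0.34), which was not called (adjusted p = 0.0195 in edgeR and 0.0113 in DESeq2), its libraries overlapping between the lines, and Trib3 was at 0.45 (SE 0.19, adjusted p = 0.0517 in edgeR). The differences of the 10 ran from -0.32 (Sesn2) to that of Atf3, with a median of 0.04, and 0.03 over all tested genes. Scaled by library totals alone, the median of all tested genes moved to 0.34 and 6 regulators were called higher in NRK-52E. Beside them, 6375 of 14026 tested genes were called higher in NRK-52E and 69.1% in either direction. Small differences between the lines at pH 7.4 thus rest on the scaling, and Eif2ak3, Atf5, Ddit3 and Ppp1r15a turned from negative to positive.

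At pH 6.0, 9 of 10 regulators were higher in NRK-52E than in NRK-49F, all but Eif2ak4, against 28.6% of 13796 tested genes called higher in NRK-52E and 59.8% in either direction. The log2 differences of these 9 ran from 0.73 for Eif2ak3 (SE 0.12) to 3.43 for Trib3 (SE 0.32), with 3.16 for Chac1 and 2.78 for Atf3. The median was 2.06 over the 10 regulators and -0.03 over all tested genes. With the header number as a covariate, the differences of the 9 ran from 0.89 for Eif2ak3 to 4.28 for Trib3, with 3.94 for Chac1 and 3.22 for Atf3. Within number 21 they ran from 0.88 to 4.27 for the same genes, with 3.93 for Chac1 and 3.21 for Atf3. This comparison shares its libraries with the pH comparisons, so its values are not independent of those.

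In the order of group means, NRK-52E at pH 6.0 was first for all 10 regulators, and its library range overlapped that of the next group for 0 of them. The share of all genes for which this group takes first place without overlap was not computed. Scaled by library totals this place held for all but Eif2ak4, and NRK-52E at pH 7.4 moved up in the order for Eif2ak3, Eif2ak4, Atf4, Atf5, Ddit3, Ppp1r15a and Sesn2, so that the orders given below for these 7 rest on the scaling, while those of Atf3, Trib3 and Chac1 were unchanged. For Atf3 the order was NRK-52E at pH 6.0 (64.5 ± 28.3 FPM), NRK-49F at pH 6.0 (9.27 ± 0.894), NRK-52E at pH 7.4 (2.51 ± 0.878) and NRK-49F at pH 7.4 (1.32 ± 0.512), and only the last pair overlapped. Trib3 had the same order, with 166 ± 45.7, 15.4 ± 6.63, 5.83 ± 1.18 and 4.47 ± 0.916 FPM, and each neighbouring pair after the first overlapped. Eif2ak3 was the regulator with no overlap between neighbours under TMM scaling, with 128 ± 15.2 FPM in NRK-52E and 76.2 ± 8.92 in NRK-49F at pH 6.0, then 64.8 ± 1.91 in NRK-49F and 59.7 ± 0.939 in NRK-52E at pH 7.4 (70.8 in NRK-52E at pH 7.4, 70.4 in NRK-49F at pH 6.0 and 58.7 in NRK-49F at pH 7.4 with library totals). For the other 7 regulators neighbouring groups below the highest overlapped. NRK-49F at pH 6.0 was second for Atf4, Ddit3 and Ppp1r15a, followed by NRK-52E and then NRK-49F at pH 7.4 for Atf4 and by the reverse for Ddit3 and Ppp1r15a. NRK-52E at pH 7.4 was second for Eif2ak4 and Chac1, followed by NRK-49F at pH 6.0 and at pH 7.4. NRK-49F at pH 7.4 was second for Atf5, followed by NRK-52E at pH 7.4 and NRK-49F at pH 6.0, and for Sesn2, followed by NRK-49F at pH 6.0 and NRK-52E at pH 7.4.

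A list of 23 other genes around eIF2 held further kinases, eIF2 and eIF2B subunits, phosphatases and their partners, and the separate initiation factors Eif2a and Eif2d. Of these 23, 16 rose, Eif2a and Eif2d among them, and 2 fell in NRK-52E (12 and 4 when libraries were scaled by their totals). The median was 0.64, beside 28.2% of all tested genes that rose and 56.7% that were called. In NRK-49F 9 rose and 4 fell, with a median of 0.13, beside 18.4% and 37.8% of all tested genes. The largest rises in NRK-52E were those of Eif2ak2, the kinase PKR, from 37.1 ± 1.90 to 125 ± 36.8 FPM (log2 fold change 1.73, SE 0.20), and of Eif2b3, a subunit of the exchange factor eIF2B, from 21.7 ± 0.564 to 71.3 ± 15.7 FPM (1.70, SE 0.15). The genes that fell were Oma1, the mitochondrial protease that relays mitochondrial stress to this pathway, at -1.75 (SE 0.25), and Prkra, an activator of PKR, at -0.62 (SE 0.15). The call of Prkra was lost without N1, N3 or N7, with values of -0.57, -0.62 and -0.55, and within header number 22 the calls of Prkra (-0.44), Oma1 (-1.56) and Eif2ak2 (1.46) were lost. In NRK-49F, Eif2b3 rose by 1 and Prkra fell by 0.68, and the other 3 genes that fell, named after their values were seen, were Ppp1ca, Dele1 and Nck1. There Eif2ak2 was at 0.05, not called, and Oma1 at -0.69 (SE 0.20), which missed the threshold in edgeR (adjusted p = 0.0114) and passed it in DESeq2 (adjusted p = 0.00288). Oma1 was called there with the header number as a covariate (-0.72), within number 20 (-0.96), without N16 (-0.90), with the likelihood-ratio test, without the low-count filter and at an FDR below 0.05. The call of Prkra in NRK-49F was lost within number 21 (-0.64). The interaction was more positive in NRK-52E for 12 of the 23 and more negative for 2, Oma1 and Eif2b5, beside 19.4% of all tested genes more positive and 37% called.

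Of 26 listed targets of ATF4 and CHOP, 24 were found in the count table, and Tnfrsf10b and Bbc3 were not analysed here. Among the 24 tested in NRK-52E, 19 rose and 0 fell, against 28.2% of all tested genes that rose and 56.7% that were called, and the median was 1.67. In NRK-49F, 13 of 23 rose and 2 fell, Jdp2 and Map1lc3b, against 18.4% and 37.8% of all tested genes, with a median of 0.67. Gdf15, a secreted stress cytokine, was near 0 at pH 7.4 (0.0908 ± 0.133 FPM in NRK-52E, 0.188 ± 0.141 in NRK-49F) and rose in both lines, to 25.9 ± 8.92 and 16.2 ± 5.27 FPM (adjusted p = 5.06e-07 and 6.61e-07 in edgeR), and the difference between the lines was not called (adjusted p = 0.232 in edgeR). Mthfd2, a mitochondrial folate enzyme, also rose in both, NRK-52E going from 15.4 ± 1.43 to 218 ± 47.9 FPM and NRK-49F from 20.6 ± 1.18 to 66.0 ± 11.4, with log2 fold changes of 3.80 (SE 0.16) and 1.66 (SE 0.13) and a difference that was called (2.13, adjusted p = 2.54e-07 in edgeR). The interaction was more positive in NRK-52E for 11 of the 24 targets, against 19.4% of all tested genes (37% in either direction), and more negative for Psat1, an enzyme of serine synthesis, at -2.04 (SE 0.18). Psat1 was named after its values were seen. It rose by 1.89 (SE 0.15) in NRK-49F and was at -0.14 (SE 0.096), not called, in NRK-52E.

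Among 5 dimer partners and cofactors of ATF4, Cebpg, which binds DNA with ATF4, was the gene called in NRK-52E, from 53.8 ± 2.29 to 197 ± 30.2 FPM (log2 fold change 1.85, SE 0.11), and the interaction was 1.62 (SE 0.15, adjusted p = 1e-07 in edgeR). That was 1 of 4 tested there, with a median of 0.47, where 56.7% of all tested genes were called. In NRK-49F, 0 of 5 rose and 1 fell, Cebpd, at -3.16 (SE 0.19), named after its values were seen, where 37.8% of all tested genes were called, and the median was -0.05 (0.00319 with libraries scaled by their totals). Cebpd did not pass the filter on low counts in NRK-52E.

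Of 7 paralogues of the regulators tested in NRK-52E, where 28.2% of all tested genes rose and 56.7% were called in either direction, 3 rose (Eif2ak2, Ppp1r15b and Eif2ak1) and 2 fell (Chac2 and Sesn3), with a median of -0.01. Ppp1r15b, the constitutive counterpart of Ppp1r15a, rose by 1.44 (SE 0.13), while Chac2 was at -1.40 (SE 0.26) and Sesn3 at -1.37 (SE 0.28). Within header number 22 the calls of Chac2 (-0.99, adjusted p = 0.0544 in edgeR) and Sesn3 (-1.52, adjusted p = 0.0108 in edgeR) were lost, and within 21 that of Sesn3 (-1.24, adjusted p = 0.0453 in edgeR). In NRK-49F, where 18.4% of all tested genes rose and 37.8% were called, 1 of 8 rose, Ppp1r15b (0.38, SE 0.10, adjusted p = 0.00734 in edgeR), and 2 fell, Sesn1 and Trib2, with a median of -0.03, which was 0.02 with libraries scaled by their totals. The call of Ppp1r15b in NRK-49F was lost without N9, N10, N11, N12, N14 or N15, with values between 0.31 and 0.41, within number 21 (0.39) and with all 16 libraries in 1 model (0.38).

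Of 14 genes of the other arms of the unfolded protein response, those of XBP1 and ATF6, 12 rose and 1 fell in NRK-52E (28.2% of all tested genes rose and 56.7% were called), where the median was 1.22, and 3 rose (Hyou1, Atf6 and Ern1) and 2 fell (Sdf2l1 and Herpud1) in NRK-49F (18.4% and 37.8% of all tested genes), with a median of 0.10. Hspa5, the chaperone BiP, went from 799.6 ± 65.0 to 3920 ± 724 FPM in NRK-52E (log2 fold change 2.27, SE 0.14) and was at 667 ± 42.5 and 583 ± 106 FPM in NRK-49F (-0.21, SE 0.13, not called). Manf, a secreted factor of the endoplasmic reticulum, rose by 1.96 (SE 0.15) in NRK-52E and was at 0.12 (SE 0.13), not called, in NRK-49F, where it was called within number 20 (0.39, adjusted p = 0.00324 in edgeR). Pdia4, a disulfide isomerase, was the gene that fell in NRK-52E, at -0.36 (SE 0.083), a call that was lost within header number 21 (-0.47, adjusted p = 0.0208 in edgeR) and within 22 (-0.29, adjusted p = 0.156 in edgeR). The interaction was more positive in NRK-52E for 8 of the 14 and more negative for 0, beside 19.4% of all tested genes more positive and 37% called.

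The genes whose levels across the 16 libraries were most like those of 3 central factors were sought among 9815 genes with at least 10 FPM in some group. Closest to Atf4 were Psmd8 (Pearson's r of 0.992 on log2(FPM + 1)), Ubac1 (0.989) and Prpf3 (0.986), closest to Atf3 were Shmt2 (0.990), Uri1 and Eaf1 (both 0.986), and closest to Ddit3 were Ube2k (0.985), Psmc4 (0.982) and Surf6 (0.981). These values describe a pattern over 4 groups of libraries rather than 16 independent points. Psmd8, a proteasome subunit, was at 343 ± 46.4 FPM in NRK-52E at pH 6.0 and at 89.8 ± 11.4, 71.7 ± 7.28 and 89.6 ± 11.9 in NRK-52E at pH 7.4 and NRK-49F at pH 7.4 and pH 6.0. Shmt2, a mitochondrial enzyme of serine metabolism that was also on the list of targets, was at 71.7 ± 8.34 and 272 ± 59.2 FPM in NRK-52E and 49.6 ± 5.55 and 118 ± 19.6 in NRK-49F at pH 7.4 and pH 6.0.

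Since 9 regulators rose together in NRK-52E, their promoters were searched for the core of the C/EBP-ATF response element, TGATGNAA on either strand, in the RefSeq window from 250 bases before to 50 after the gene start (build GRCr8, a later build than the rn6 of the counts). Of the 10 regulators, 9 matched a promoter in the table, and 2 of these held the motif, Trib3 and Chac1, which is 22.2% against 3.98% of 33469 promoters. Each is shown with 11 bases on either side of the motif, 5′ to 3′ in the direction of the gene, with the motif in capitals, and in both it lay on the opposite strand. The stretch of Trib3 was at chr3:161275536-161275565 on the minus strand, with the motif starting 21 bases before the gene start, and that of Chac1 at chr3:126795953-126795982 on the plus strand, 167 bases before the start.
Trib3: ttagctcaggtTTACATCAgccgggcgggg
Chac1: cttctccgccgTTGCATCActcctgctagg
The promoters of Eif2ak3, Eif2ak4, Atf4, Atf5, Ddit3, Ppp1r15a and Sesn2 did not hold these letters in this window, and Atf3 was not matched. Among the listed targets, 4 of 21 genes with a matched promoter held the motif, Pycr1, Slc7a1, Fgf21 and Jdp2. It was held by 2 of 23 genes listed around eIF2, Eif2s2 and Ppp1r15b (8.7%). Among the other arms of the unfolded protein response, 1 of 11 held it, Herpud1 (9.09%), and Nupr1 of the ATF4 partners held it too. The lists were counted by gene and the background by promoter. A match of letters is a description and not a binding site.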

How the data were processed

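Poly(A) RNA was sequenced in pairs of 150 bp reads, and the authors deposited raw counts of fragments per Ensembl gene (rn6), with no normalization or filter. For alignment the study's methods name tophat2 and the submitters' notes HISAT2 2.1.0, and both name featureCounts. Fragments that map to several places were counted at each and strand was not named, so counts of near-identical or overlapping genes are uncertain.

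FPM came from edgeR's cpm with TMM factors over 16 libraries. Each comparison of 8 libraries was tested in R 4.3.3 with edgeR 4.0.16 (quasi-likelihood, TMM, filterByExpr) and DESeq2 1.42.0 (Wald test), two-sided, with Benjamini-Hochberg adjustment over all tested genes, and a gene was called at an FDR below 0.01 in both, which is the study's rule. The interaction was called from edgeR, with DESeq2 as an alternative. Printed log2 fold changes come from edgeR, with a standard error derived from its F statistic. The pipeline was tested on simulated data, in which it recovered 77.5% of changed genes, with 0.641% of calls false. In the simulation far fewer genes changed than were called in the data, equally up and down, with the same noise setting for every gene. These rates therefore need not hold for the data. Library totals ran from 16201084 to 34784862, and no pair of libraries was as alike as sampling noise would make it (smallest chi-square per degree of freedom 6.12).

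The members and the lists were chosen with earlier results of these data known. All 10 members are named, and from each list the 2 largest rises and falls called in NRK-52E. For Atf4, Atf3 and Ddit3 the 3 most similar genes are named. Alternatives tried were other scalings, filters, tools, tests and thresholds, all 16 libraries in 1 model, the header number as a covariate or alone, and each library left out. The interaction of pH with the header number was added after the data were seen.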

Additional observations from a re-analysis of the deposited data

Results flagged for a closer look

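In 4 of 40 sets of 4 libraries (10 genes in 4 groups), 1 library stood far from the other 3 by Dixon's criterion, where chance flags about 1 in 20, or 2 of 40. In NRK-52E at pH 7.4, N1 stood apart for 3 genes. It was below the others for Eif2ak3 (58.28 FPM, others 60.02 to 60.31), and above them for Atf5 (126.9 FPM, others 102.9 to 105.6) and Ppp1r15a (49.76 FPM, others 38.35 to 39.04). In NRK-52E at pH 6.0, N3 was above the others for Atf4 (1189 FPM, others 792 to 816). Without N3 or N1, 9 of the 10 regulators were still called in NRK-52E.

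The pH effect differed between NRK-52E and NRK-49F by the interaction test in edgeR for 9 regulators, each more positive in NRK-52E. The differences, on the log2 scale, were 0.85 for Eif2ak3, 1.59 for Atf4, 1.87 for Atf3, 1.72 for Atf5, 2.06 for Ddit3, 3.06 for Trib3, 2.69 for Ppp1r15a, 2.54 for Chac1 and 3.04 for Sesn2. For Atf3 and Trib3 both lines rose, and for the other 7 genes a rise was called in NRK-52E alone.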

How the results depend on the processing

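In NRK-52E 9 of the 10 regulators were called, at pH 6.0 9 were higher in NRK-52E than in NRK-49F, and both counts held under every scaling, filter, tool, test, threshold and header number tried and with each library left out. The interaction count of 9 became 8 without N3 or N14, each time by the loss of Atf3. In NRK-49F the count of 2 was 4 within header number 20 and 1 within 21, and 3 without N16. There 37.8% of all tested genes were called, 35% within number 20, 14.3% within 21 and 36.8% without N16. For the lines at pH 7.4 the count of 1, higher in NRK-52E, was 4 at an FDR below 0.05 (Ppp1r15a and Sesn2 among them lower in NRK-52E), 6 with library totals, all higher, 0 with 16 libraries in 1 model, 0 within number 21, and 1 to 2 with a library left out, the added gene (Ppp1r15a or Sesn2) lower in NRK-52E. Of all tested genes, 66.6% were called between the lines at pH 7.4, 75.4% at an FDR below 0.05 and 69.1% with library totals. The share was 59.8% with 16 libraries in 1 model, 39.9% within number 21 and 60.4% to 65.5% with a library left out. The cause of these changes in count was not tested.

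Some log2 values turned sign. With library totals they were -0.0108 for Eif2ak4 in NRK-52E, -0.0661 for its interaction, and 0.271 (Eif2ak3), 0.223 (Atf5), 0.151 (Ddit3) and 0.00772 (Ppp1r15a) between the lines at pH 7.4. In NRK-49F within number 20 they were -0.0707 for Eif2ak4, 0.142 for Atf5, 0.132 for Sesn2, -0.0727 for Eif2ak2 and 0.0806 for Hspa5, and within number 21 -0.0157 for Atf4, -0.531 for Chac1, 0.0877 for Chac2 and -0.123 for Manf. With a library left out, values in NRK-49F ran from -0.0478 to 0.0485 for Eif2ak4, -0.152 to 0.343 for Chac1, -0.338 to 0.0167 for Sesn2 and -0.0275 to 0.0943 for Eif2ak2. The cause was not tested.

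Called genes numbered 7793 in NRK-52E, 5244 within number 21 and 2820 within 22, 5039 in NRK-49F, 4680 within number 20 and 1980 within 21, 9338 between the lines at pH 7.4 and 5679 within number 21, and 5428 for the interaction and 2548 within number 21. The cause was not tested. With library totals the share of calls that were higher went from 49.7% to 37.6% in NRK-52E, from 50% to 65.7% between the lines at pH 7.4 and from 52.3% to 33.7% for the interaction. No paired analysis was possible because the replicate numbers N1 to N16 each occur once. Libraries of NRK-52E and NRK-49F may come from the same co-cultures, but no label says which. The tests between the lines and of the interaction treat them as independent. A pair of libraries of each group shares a header number of unstated meaning, and with that number as a covariate 9 regulators were called in NRK-52E and 2 in NRK-49F. With this covariate 55% of all tested genes were called in NRK-52E and 39.1% in NRK-49F.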
